A study of Homo sapiens with 24 samples.

Results

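The genes described here are those that encode the proteins of the cytosolic ribosome, measured by poly(A) RNA sequencing of SET2, an established human cell line of megakaryoblasts whose growth depends on JAK2, the kinase mutated in many myeloproliferative neoplasms. Members were the rows whose symbol has the form of a ribosomal protein gene (RPL or RPS and a number, RPLP0, RPLP1, RPLP2 or RPSA) and whose mean normalised read count over all libraries was at least 50. They numbered 83 of the 25082 genes in the table, 50 of the large subunit and 33 of the small subunit. A further 3 rows matched by symbol and were too low, namely RPL3L (mean 1.18), RPL12L3 (3.18) and RPS10L (8.0). By RefSeq synonyms RPS4L is the pseudogene RPS4XP3, which the symbol rule let in.

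All 24 libraries came from SET2 cells and fall into 8 groups of 3. One group is naive cells with no inhibitor. Another 4 are persistent lines kept in medium with 1 drug each, which was INC424, SAR302503, CYT387 or BMS911543. The last 3 are naive cells given the vehicle DMSO for 4 h, INC424 for 4 h or INC424 for 48 h. The drugs are type I JAK inhibitors, which bind the active kinase: INC424 is ruxolitinib, CYT387 is momelotinib, SAR302503 is fedratinib and BMS911543 is a JAK2-selective compound. The labels give no concentrations, no DMSO control at 48 h and no word on whether replicates were separate cultures. Each persistent line stands for 1 drug, and p-values here measure only the spread between these libraries, which may be technical. The study compared persistent with naive cells and acute exposure with vehicle.

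Ribosomal proteins are made in matched amounts for assembly into a large and a small subunit, and their mRNAs are among the most abundant of a growing cell. Most of these mRNAs begin with a run of pyrimidines, the 5′ terminal oligopyrimidine (TOP) motif, through which the kinase mTOR, acting with LARP1, sets their translation and stability, while MYC and RNA polymerase I drive the making of ribosomes as a whole. Several members have roles of their own in blood: RPL5 and RPL11 form with the 5S RNA a particle that binds MDM2, and loss of 1 copy of RPS19, RPS26 or RPS14 impairs red cell formation in Diamond-Blackfan anaemia or the 5q- syndrome.

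The first bases of selected members are shown because this start is the feature most members share, and because the genes that moved most include starts with and without it. RefSeq (GRCh38.p14) held a start for 66 of the 83 members, and each line gives 26 bases, from 5 before the annotated start onwards, with the pyrimidine run that lies at the start in capitals. A run may begin before the first base shown. RPL13A lies at chr19:49487603-49487628, RPL31 at chr2:101002284-101002309, RPS26 at chr12:56041913-56041938 and RPS27A at chr2:55232683-55232708, on the plus strand. RPL18 (chr19:48619158-48619183), RPL22 (chr1:6199575-6199600) and RPL22L1 (chr3:170870175-170870200) are on the minus strand. RPL7L1 (chr6:42879611-42879636, plus strand) and RPS29 (chr14:49598690-49598715, minus strand) have no long run at the RefSeq start.
RPL13A: TCCTCCTTTTCCaagcggctgccgaa
RPL31: gcgCTCTTCCTTTCCaacttggacgc
RPS26: acctcgaTTTTCTTCCgccatccggc
RPS27A: TCTTCCTTTTCgatccgccatctgcg
RPL18: gTTCTCTCTTTCCggacctggccgag
RPL22: aCCTCCCTTTCTaactccgctgccgc
RPL22L1: gCTTCCTCTCTgctctcgcggccgac
RPL7L1: gcgCCgtagctaggagcggacgccat
RPS29: gcagCTggcagcggtggttgtttctg

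A run of at least 7 C or T (sense strand only) touching the 5 bases on either side of a start was present in 54 of the 66 members, 81.8%, against 19.2% of 27305 symbols with a RefSeq start and 17.4% of 69 mitochondrial ribosomal protein genes. The share was 80.5% of 41 large-subunit genes and 84.0% of 25 small-subunit genes. The members without such letters were RPL3, RPL6, RPL7L1, RPL12, RPL15, RPL26L1, RPL27, RPL32, RPS4X, RPS15, RPS27L and RPS29. A match is a description of the annotated start, and a start placed a few bases away would change it.

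The libraries held 21770721 to 36160750 reads assigned to genes. Megakaryocyte and erythroid markers were present in every library (GATA1 4612 to 8699 normalised counts, ITGA2B 41778 to 118546), except that PF4 was listed at 0 in 17. Library 2 of the CYT387 line stood apart, with 0.492% of its reads in 10 squamous epithelium markers and 0.623% in 10 stroma markers. The next highest squamous shares were 0.106% in SAR302503 library 3, 0.0259% in INC424 persistent library 2 and 0.0220% in INC424 48 h library 3. Results on the lines are therefore also given without these 4 libraries.

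Members took between 2.60% and 4.67% of all assigned reads, and the groups separated into a low and a high set. The share was 4.5%, 3.88% and 3.48% in the naive libraries, 3.81%, 3.69% and 4.02% after 48 h of INC424, 4.55%, 3.70% and 4.58% in the CYT387 line, 3.73%, 3.65% and 4.47% in the INC424 line and 3.81%, 3.48% and 4.67% in the SAR302503 line. It was 2.80%, 2.73% and 2.90% after DMSO, 3.14%, 2.60% and 2.62% after 4 h of INC424 and 2.65%, 3.00% and 3.05% in the BMS911543 line. The 9 libraries of those last 3 groups all lay at or below 3.14%, and the other 15 at or above 3.48%. Both subunits moved together: the ratio of large- to small-subunit reads stayed between 1.45 and 1.57 in all 24 libraries. With bulk RNA, fewer ribosomal protein mRNAs per cell and more of other RNAs cannot be told apart.

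**Figure D1:**
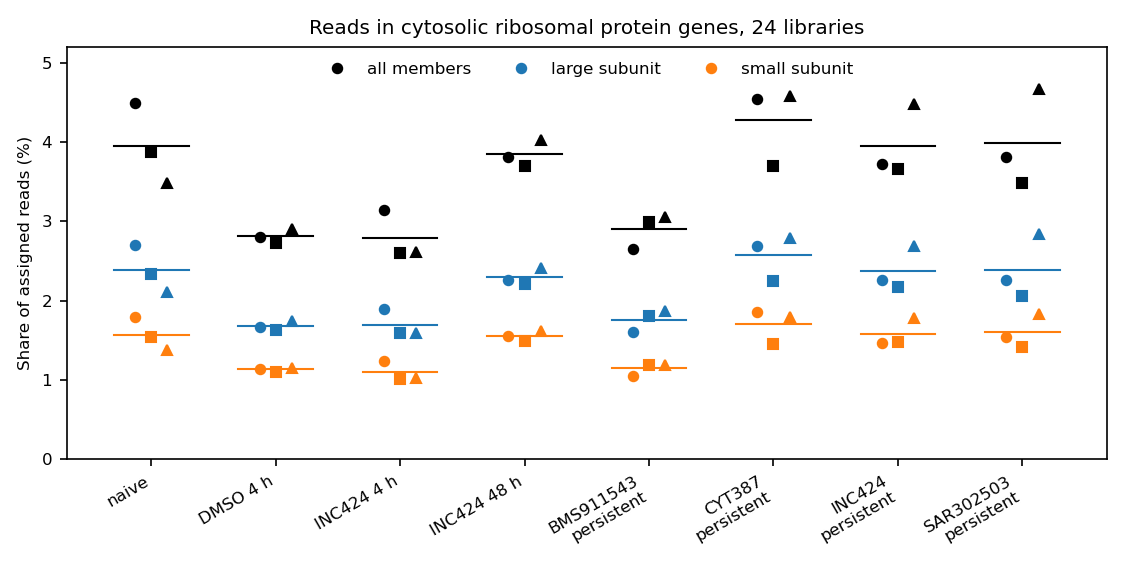
Share of assigned reads (%, y axis) in all members (black), the large subunit (blue) and the small subunit (orange) in each of the 24 libraries by group (x axis). Points are libraries 1 (circle), 2 (square) and 3 (triangle), and lines are group means; DMSO, INC424 4 h and the BMS911543 line lie at or below 3.14%, the other groups at or above 3.48%.

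Levels between genes were compared as the mean normalised count over the 24 libraries per kilobase of coding sequence (GENCODE v29), which 82 members have. RPL13A, a protein also known for translational silencing in the interferon-gamma response, was highest at 76995 per kilobase, followed by the stalk protein RPLP2 (67554), RPS18 (64463) and the stalk proteins RPLP0 (63460) and RPLP1 (58646). The lowest were RPL26L1 (156), RPL17 (378), RPL22L1 (482), RPL39L (827) and RPL36A (1324). Of these, RPL26L1, RPL22L1 and RPL39L are paralogs of RPL26, RPL22 and RPL39, and their levels sat far below those of the partners at 4383, 7311 and 3792 per kilobase. RPL17, RPL36A and RPS26 (1992 per kilobase) have 26, 19 and 30 annotated pseudogenes. How the authors' counting treated reads that match several copies is not given in the sources used here, so their levels are uncertain.

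The 83 members all passed the filter on low values (at least 10 in at least 3 libraries), as did 20154 genes in all. Changes are fitted log2 differences ± SE from 1 limma fit of log2(normalised count + 1) over the 8 groups, n = 3 libraries per group, and a gene is said to have risen or fallen only at an adjusted p under 0.05 (Benjamini-Hochberg over all genes tested). The comparisons share groups: all lines and DMSO were set against the same naive libraries, and both INC424 exposures against the same DMSO libraries. Of the 83 members, 67 were called in at least 1 of the 10 comparisons and 16 in none. The like share of all genes was not counted, so 67 cannot be read as particular to the members. In single comparisons 8.37% to 33.9% of all genes were called in either direction.

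**Figure D2:**
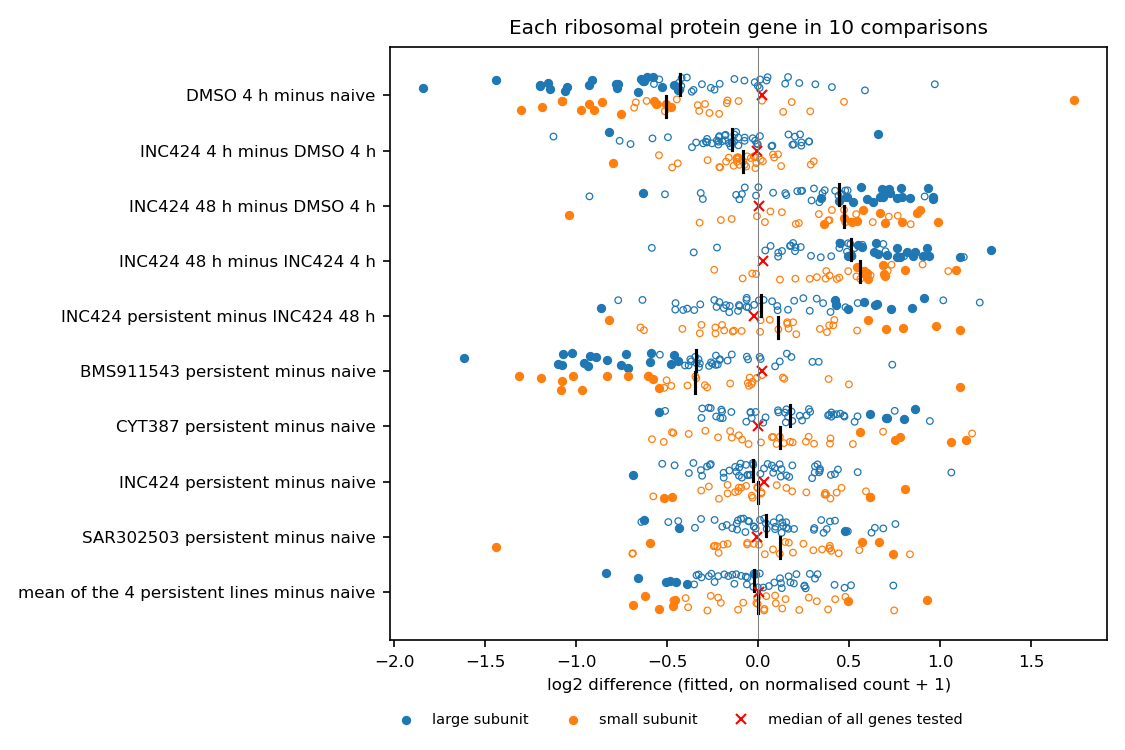
Fitted log2 difference (x axis) of each of the 83 members in 10 comparisons (rows), large subunit in blue and small in orange. Filled points passed the test, open points did not, black bars are subunit medians and red crosses the median of all genes tested; the members lie to the left for DMSO and the BMS911543 line against naive and to the right for both comparisons of 48 h with 4 h libraries.

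In the BMS911543 line ribosomal protein mRNAs were lower than in naive cells. Of the members 29 of 83 fell, 18 of the large and 11 of the small subunit, against 14.2% of all genes tested that fell, and 1 rose against 10.4%. The median member differed by -0.34 on the log2 scale, the same in both subunits to 2 decimals, and the median gene by 0.02. The groups did not overlap in 36 members that lay below naive (23.9% of all genes) and 3 above (22.5%). Mitochondrially encoded mRNAs took 2.71% to 3.48% of reads in this line against 1.78% to 2.56% in naive, and their part in the result was not tested.

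RPL13A counts were 83584, 72569 and 89344 in naive cells and 26921, 27439 and 25448 in the BMS911543 line. All 3 persistent libraries were close together and far below naive, and the fitted difference was -1.62 ± 0.19 (limma adjusted p = 8.94e-07). RPS27A, made as a fusion of ubiquitin with a small-subunit protein, counted 24008, 21076 and 19727 in naive and 9231, 9057 and 7792 in the line (-1.31 ± 0.18, limma adjusted p = 8.63e-06). These groups did not overlap either. RPS29 went from 12914, 7412 and 6823 to 4304, 3910 and 3238 (-1.19 ± 0.16, limma adjusted p = 8.05e-06), with naive library 1 well above its partners and no overlap. RPL36 fell by 1.1 on the log2 scale, RPS14, the 5q- syndrome gene, by 1.08, RPL5 by 0.83, and RPS6, the phosphorylation target of the S6 kinases, by 0.83. RPS26 alone rose, from 313, 422 and 319 to 634, 881 and 761 (1.11 ± 0.24, limma adjusted p = 0.00129). Each of its persistent libraries lay above every naive one.

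The other lines did not show that general fall. In the CYT387 line 10 members rose (11.2% of all genes did) and 1 fell (11.1%), with a median of 0.16 over the members. RPS15, a protein of the small-subunit head, counted 3063, 3281 and 2940 in naive and 5264, 11824 and 5130 in the line (1.14 ± 0.41, limma adjusted p = 0.0483), and the high middle value is library 2. That call passed in only 8 of 19 settings, with the difference down to 0.75 and the adjusted p up to 0.212. RPS26 was 1.06 higher, RPL37A 0.86 and RPL19 0.80, and RPL13A was 0.54 lower (limma adjusted p = 0.0408, past the threshold in 11 of 19 settings). The number called was 18 without the 4 libraries richest in squamous markers, 18 without CYT387 library 1, 7 without naive library 1 and 2 without naive library 3. This count is the least stable of the 4 lines. The share of all genes called without those libraries is not given here, so such counts cannot be read as particular to the members.

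In the INC424 line 3 members rose and 3 fell, against 9.95% and 12.5% of all genes, and the median was -0.01. The split was 3 and 1 under TMM, upper-quartile and member-free scaling, and 8 and 3 when these groups were fitted alone. RPS26 (0.81), RPS12 (0.62) and RPS27L, the p53-induced paralog of RPS27 (0.62), rose, and RPL13A (-0.69), RPS27A (-0.52) and the X-linked RPS4X (-0.47) fell. Of 19 settings RPS27A passed in 9 and RPS4X in 12. Without INC424 persistent library 3 there were 3 calls, and without the 4 squamous-rich libraries 15. The share of all genes called in those fits is not given here, so neither count can be read as particular to the members. In the SAR302503 line 4 rose and 4 fell, against 8.7% and 10.6% of all genes, with a median of 0.08. Upper-quartile scaling gave 2 and 5, and edgeR 5 and 2. RPS14 counted 22164, 19411 and 17253 in naive and 14428, 11546 and 12945 in this line (-0.59 ± 0.18, limma adjusted p = 0.0227), with no overlap, and RPS26 (0.74), RPS12 (0.67), RPS10 (0.57) and RPL29 (0.48) were higher. Of 19 settings RPS12 passed in 17, RPS26 in 14, RPS10 in 11 and RPL29 in 9, and the RPL29 difference went down to 0.19. The SAR302503 count was 3 without naive library 1 or without naive library 3, 5 without SAR302503 library 1 and 17 without the 4 squamous-rich libraries (4 higher and 13 lower, with 35.2% of all genes called). The members' median was -0.08 without those 4 libraries, so the direction of the median turned.

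Taken as a mean of 4 lines, 2 members rose and 11 fell against naive (9.79% and 12% of all genes), or 4 and 9 when libraries were scaled by reads outside the members. RPS26 (0.93 ± 0.19, limma adjusted p = 8.55e-04) was the 1 member with every persistent library above every naive one, which held for 2.44% of all genes, and 0 members lay wholly below (3.96%). RPL13A was 0.84 lower on the log2 scale and the other fallers included RPS27A and RPL3, while RPS12 rose by 0.49. The count was 5 without naive library 1 and 25 without the 4 squamous-rich libraries. Neither can be read as particular to the members, as the share of all genes in those fits is not given here. No member rose in one line and fell in another. RPS26 rose in all 4 lines and RPS12 in 3 (the CYT387, INC424 and SAR302503 lines), and RPL13A fell in 3 (the BMS911543, CYT387 and INC424 lines). In the SAR302503 line RPL13A counted 47396, 51945 and 78833, which overlaps the naive range at its top.

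The lines were also compared with each other in a single F test. Of the members 41 of 83 differed, 25 of the large and 16 of the small subunit, close to the 47.1% of all genes that did. Among the members with small adjusted p-values by limma were RPL5 (3.71e-05) and RPS29 (3.88e-05). RPL5 counted 10564, 9688 and 9745 in the BMS911543 line and 13969 to 20090 in the other 3 lines, with no overlap. The F count was 66 without the 4 squamous-rich libraries, where 64.0% of all genes were called, so the members again sat near the background.

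**Figure D3:**
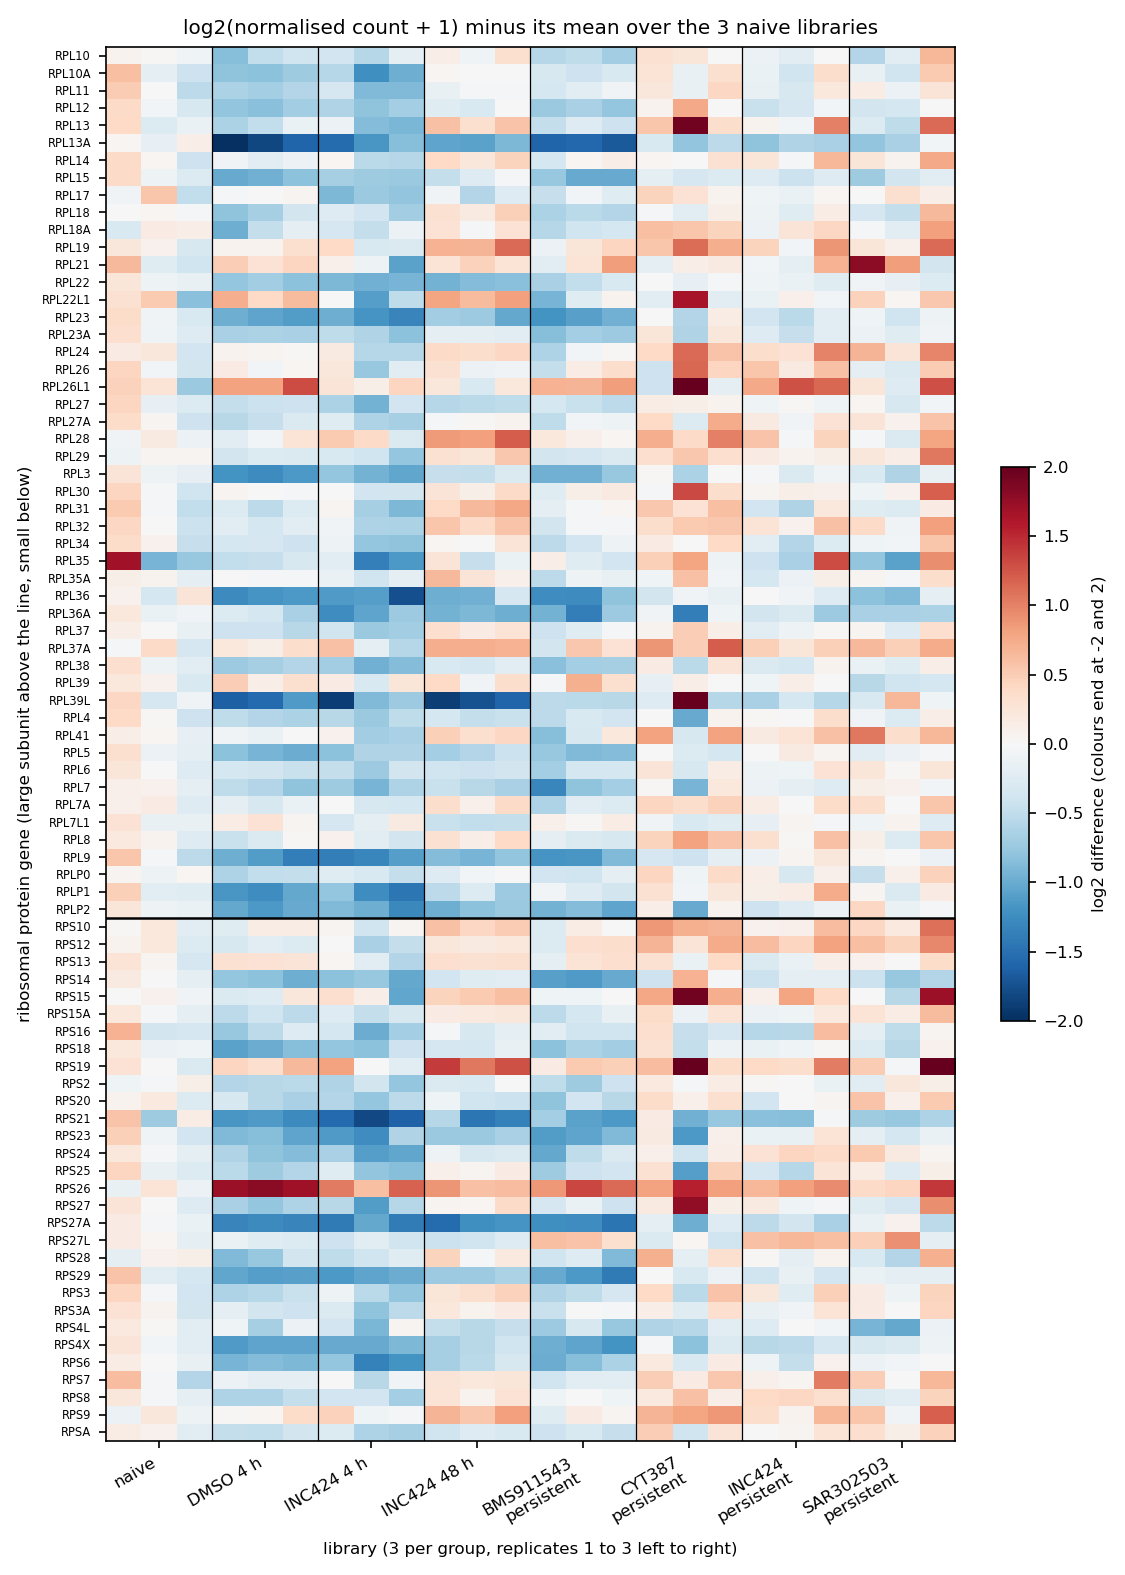
Heat map of log2(normalised count + 1) of the members reported by name (rows, large subunit above the black line) in each library (columns, 3 per group) minus its mean over the 3 naive libraries. Blue bands cover most rows in the DMSO, INC424 4 h and BMS911543 columns, RPS26 is red in all 21 libraries that are not naive, and CYT387 library 2 differs from its neighbours.

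Acute INC424 was compared with DMSO. At 4 h 3 of the 83 members were called, against 8.37% of all genes. Only RPL13A rose (0.66 ± 0.19, limma adjusted p = 0.0301, against 4.88% of all genes higher), from 18922, 23136 and 26800 under DMSO to 28020, 36418 and 45306. The 2 ranges did not touch. RPL17 (-0.82 ± 0.21, limma adjusted p = 0.0179) and RPS26 (-0.80 ± 0.24, limma adjusted p = 0.0378) fell, against 3.49% of all genes lower. RPL17 counted 216, 221 and 230 under DMSO and 117, 132 and 127 at 4 h. The median member differed by -0.12 and the median gene by -0.01. Genes outside the list with a coding length under 600 bases and a mean of at least 1000 had a median of -0.10. The part of gene length in the result was not tested. Upper-quartile scaling left 0 higher and 2 lower. These calls depend on single libraries: 0 passed without DMSO library 1, DMSO library 2 or INC424 4 h library 3, and 1 without DMSO library 3 or INC424 4 h library 2. By limma with all libraries 6 members had an unadjusted p under 0.05.

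By 48 h the ribosomal protein mRNAs stood well above the 4 h DMSO libraries. Of the members 31 rose, 20 of the large and 11 of the small subunit (17.6% of all genes rose), and 2 fell (16.4%), where 33.9% of all genes were called in either direction. The median was 0.46 over all members, 0.44 in the large and 0.47 in the small subunit, and 0.00 over all genes. The 48 h libraries lay wholly above DMSO in 59 members (30.7% of all genes) and wholly below in 8 (29.2%). The number called was 20 without INC424 48 h library 3. Time in culture differs between these groups as well as the drug, and these cannot be told apart without a DMSO control at 48 h. Mitochondrially encoded mRNAs took 1.99% to 2.16% of reads at 48 h against 2.52% to 2.65% under DMSO. The 8 megakaryocyte and erythroid markers took 0.556% to 0.582% against 0.307% to 0.377%, and 5 of them rose. The part of these shifts in the result was not tested. Members took 3.69% to 4.02% of reads at 48 h, which lies within the naive range of 3.48% to 4.5%. The DMSO libraries all lay below that range. The 48 h libraries stood above DMSO, and whether they differed from naive cells was not tested.

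RPL31, a large-subunit protein near the exit tunnel, counted 7406, 6183 and 7373 under DMSO and 11726, 13903 and 15287 at 48 h (0.96 ± 0.24, limma adjusted p = 0.00324). RPL28 (0.96) and RPL18 (0.93) rose by like amounts, and in all 3 the groups were apart. Of the genes linked to red cell disorders, RPL5 rose by 0.35, RPL11 by 0.57, RPS14 by 0.57 and RPS24 by 0.52. Of 19 settings RPL5 passed in 10, RPL11 in 12, RPS24 in 14 and RPS14 in 16. RPS19 differed by 0.77 ± 0.45 (limma adjusted p = 0.202), RPS10 by 0.48, RPS7 by 0.41 and RPL35A by 0.35, none past the threshold, and RPS26 is described next.

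The 2 members that fell at 48 h were RPS26 and RPL7L1. RPS26 counted 1156, 1212 and 1125 under DMSO and 645, 524 and 533 at 48 h (-1.04 ± 0.24, limma adjusted p = 0.00160). Its 48 h values stayed above the naive ones. RPL7L1, a paralog of RPL7 that acts in the nucleolus in ribosome making, counted 4999, 5507 and 4643 and then 3283, 3210 and 3238 (-0.63 ± 0.14, limma adjusted p = 8.82e-04). Its 48 h libraries were nearly identical and below all 21 others.

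Against 4 h of the same drug, 31 members rose at 48 h (7.03% of all genes) and 0 fell (7.69%), with a median of 0.53. The 48 h libraries lay wholly above in 60 members (25% of all genes) and wholly below in 1 (23.3%). No member fell by limma, DESeq2 called 1 lower, and 53 members had an unadjusted limma p under 0.05 in either direction. RPL31 (1.11) and RPL32 (0.94) rose, and so did RPL22L1, a paralog of RPL22, from 144, 67.6 and 102 to 251, 225 and 257 (1.28 ± 0.41, limma adjusted p = 0.0378). The RPL22L1 groups were apart, and the call passed in 13 of 19 settings. Against DMSO RPL22L1 differed by -1.13 at 4 h and 0.15 at 48 h, neither past the threshold. The number called was 8 without INC424 4 h library 2, 9 without INC424 4 h library 3, 13, 15 and 12 without 48 h library 1, 2 or 3, and 18 by edgeR. INC424 4 h library 1 held 3.14% of reads in members against 2.60% and 2.62% in its partners.

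The INC424 persistent line was also set against 48 h of the same drug. Here 14 members rose and 2 fell, against 14.5% and 15.4% of all genes (29.9% together), and the median was 0.06. The split was 11 and 4 under upper-quartile scaling, 11 and 6 under scaling by reads outside the members, 17 and 5 by DESeq2 and 29 and 13 with these groups fitted alone. The line lay wholly above 48 h in 28 members (26.6% of all genes) and wholly below in 12 (28.8%). RPS27L went from 563, 571 and 633 to 1136, 1195 and 1143 (0.98 ± 0.19, limma adjusted p = 3.43e-04). The groups did not overlap. RPL9 (0.91), RPLP1 (0.85), RPL22 (0.73) and RPL5 (0.64) were higher too, and RPL31 (-0.87) was lower. The count was 10 without INC424 48 h library 2 or without INC424 persistent library 2, and 29 without CYT387 library 2 in the shared fit.

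DMSO for 4 h was compared with naive cells, as neither group was given an inhibitor. Of the members 35 fell, 22 of the large and 13 of the small subunit (14.6% of all genes fell), and RPS26 alone rose (11.4%). The median was -0.45, -0.43 in the large and -0.51 in the small subunit, against 0.02 over all genes. Under DMSO 44 members lay wholly below naive (24.5% of all genes) and 3 above (23.8%). Genes outside the list with a coding length under 600 bases and a mean of at least 1000 numbered 510 and had a median of -0.04.

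RPL13A counted 83584, 72569 and 89344 in naive and 18922, 23136 and 26800 under DMSO (-1.84 ± 0.19, limma adjusted p = 2.64e-07). RPS27A fell from 24008, 21076 and 19727 to 8595, 8927 and 8658 (-1.30 ± 0.18, limma adjusted p = 1.38e-05). RPL3, which reaches towards the peptidyl transferase centre, fell from 60615, 47469 and 45269 to 22083, 21252 and 22930 (-1.20 ± 0.16, limma adjusted p = 1.11e-05). In all 3 the DMSO libraries were far below naive. RPL39L fell by 1.44 on the log2 scale, RPLP1 by 1.14, RPLP2 by 1.06, RPLP0 by 0.53, RPL5 by 0.91, RPL11 by 0.63 and RPS6 by 0.90. RPS26 moved the other way, from 313, 422 and 319 to 1156, 1212 and 1125 (1.74 ± 0.24, limma adjusted p = 1.22e-05).

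The count was 22 without naive library 1, the naive library with the highest share of member reads. Other measures moved with this comparison. The DMSO libraries were the deeper ones (31549970 to 33566077 reads against 26252558 to 28852363), and 12 replication-dependent histone genes took 0.00792% to 0.00905% of their reads against 0.00458% to 0.00506%. Mitochondrially encoded mRNAs took 2.52% to 2.65% against 1.78% to 2.56%. Libraries run again or on 2 lanes were 2 of 3 in DMSO and 0 of 3 in naive. Over all 24 libraries the 9 run again held 2.60% to 4.67% of reads in members, with a median of 3.14%. The 15 others held 2.62% to 4.58%, with a median of 3.70%. The part of depth, histone reads and repeated runs in the result was not tested.

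**Figure D4:**
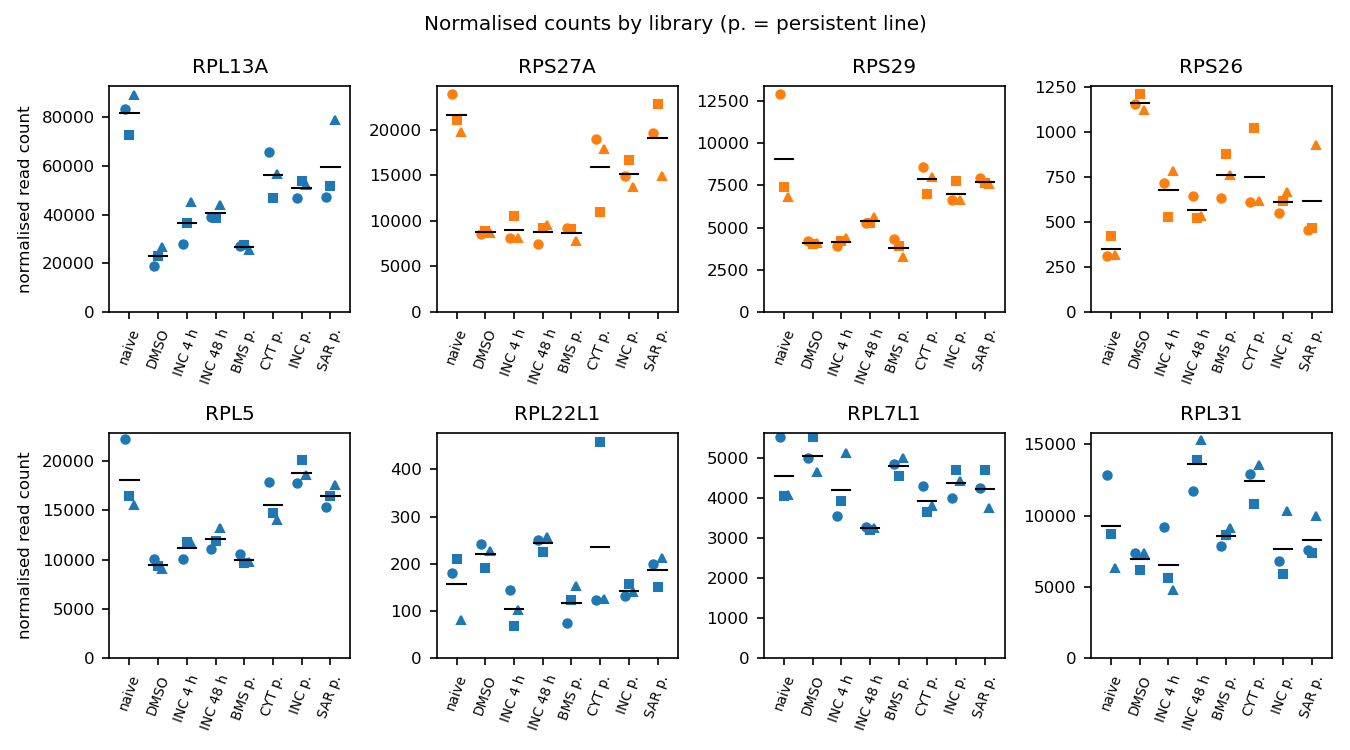
Normalised read counts (y axis, from 0) of 8 members in every library by group (x axis; p. marks a persistent line), large-subunit genes in blue and small-subunit genes in orange. Circles, squares and triangles are libraries 1, 2 and 3 and lines are group means; RPL13A is lowest under DMSO and in the BMS911543 line, RPS27A is low in those groups and at both INC424 times and RPS26 is highest under DMSO.

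Some members departed most from the shared pattern of the list. After the median member of each library was subtracted, RPS26 had the largest spread of group means (SD 0.68 on the log2 scale), and wide spreads were also seen for RPL39L (0.64), RPL26L1 (0.53), RPL39 (0.48), RPS27L (0.47), RPL7L1 (0.43) and RPL13A (0.43). RPS26 relative to the median member ranged from -1.05 in naive to 1.14 under DMSO. RPL13A ran opposite, from 0.76 in naive to -0.63 under DMSO. RPL39L and RPL26L1 stood farthest out in CYT387 library 2, at 2.50 and 2.03 above their mean place over the libraries. The RPS26 values carry the limit given above for a gene with 30 annotated pseudogenes.

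Paralog ratios compare 2 genes within a library and need no scaling between libraries. RPL22L1 counted 2.48% to 6.13% of RPL22 in naive cells, 8.52% to 11.4% under DMSO, 3.64% to 7.34% after 4 h of INC424 and 11.3% to 13.3% after 48 h. The DMSO and 48 h ranges were both clear of the naive one, and the persistent lines, at 3.27% to 7.02% apart from CYT387 library 2 at 14.1%, were near it. RPL7L1 counted 20.1% to 27.0% of RPL7 in naive, 37.4% to 43.3% under DMSO, 30.5% to 41.4% at 4 h, 23.5% to 26.7% at 48 h and 41.8% to 63.2% in the BMS911543 line. RPS27L counted 38.4% to 43.0% of RPS27 in naive, 67.4% to 78.9% in the BMS911543 line and 54.8% to 69.7% in the INC424 line, all above naive. The ratio was also wholly above naive under DMSO (52.6% to 59.8%) and after 4 h of INC424 (45.2% to 76.1%). It was wholly below naive in the CYT387 line (12.4% to 29.9%) and at 48 h (26.7% to 30.5%), and spanned 18.8% to 97.9% in the SAR302503 line. RPL39L counted 20.8% to 33.0% of RPL39 in naive, 6.39% to 10.2% under DMSO, 6.76% to 18.8% at 4 h and 5.73% to 8.77% at 48 h. The BMS911543 line (11.7% to 20.1%) and the INC424 line (18.9% to 19.9%) also lay below naive. The ratio was 33.5% to 58.7% in the SAR302503 line and 18.9% to 116% in the CYT387 line, highest in library 2. With 3 libraries against 3 an exact permutation test cannot go below p = 0.10, and over the 50 tests of 5 pairs the smallest adjusted value was 0.217.

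Changes are also given by whether a long pyrimidine run was found at the start. Under DMSO against naive the median was -0.43 in the 54 members with the run and -0.41 in the 12 without, and at 48 h against DMSO it was 0.47 and 0.46. In the BMS911543 line the medians were -0.33 and -0.45, in the CYT387 line 0.16 and -0.06, and in the SAR302503 line 0.11 and -0.10. At 48 h against 4 h they were 0.58 and 0.40, and in the INC424 line against 48 h -0.01 and 0.33. RPL13A, with an uninterrupted run, and RPS29, with the letters shown above, both fell in the BMS911543 line and under DMSO. The differences between the 2 sets were not tested.

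Other genes of the same pathway are given from lists. Of 16 translation factors and other TOP mRNAs, 11 fell under DMSO against naive and 10 in the BMS911543 line, and 0 rose, with medians of -0.71 and -0.55. Of all genes 14.6% and 14.2% fell. EEF1A1, the elongation factor that delivers tRNAs, was -1.18 and -0.99, EIF3E, a subunit of the initiation factor that joins the small subunit, -1.23 and -0.95, and BTF3 -0.92 and -1.20. At 48 h against DMSO 5 of the 16 rose, among them TPT1 (0.69) and EIF3F (0.69), and NPM1, a nucleolar assembly chaperone, fell (-0.71). There 17.6% of all genes rose and 16.4% fell. Of the 4 ribosomal proteins outside the symbol rule, 1 fell under DMSO, 2 fell in the BMS911543 line and 1 rose at 48 h. Of all genes 14.6% and 14.2% fell and 17.6% rose. The medians of the 4 were -0.12, -0.38 and 0.31. Their values ran from -0.73 to 0.18, from -0.70 to 0.12 and from -0.28 to 0.71. Of these 4, GNB2L1 (RACK1) was -0.73 under DMSO, -0.69 in the BMS911543 line and 0.71 at 48 h.

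Genes that assemble ribosomes moved otherwise than the ribosomal proteins at 48 h. Of 22 chaperones and subunit assembly factors, 17 fell and 0 rose at 48 h against DMSO (median -0.93), 9 fell and 0 rose at 4 h (-0.42), 10 rose and 0 fell under DMSO against naive (0.45), and 12 rose and 0 fell in the INC424 line against 48 h (0.49). Of all genes 16.4% fell at 48 h and 3.49% at 4 h. The share that rose was 11.4% under DMSO and 14.5% in the INC424 line against 48 h. RRS1, which loads the 5S particle, was -1.63 at 48 h, LTV1, a small-subunit export factor, -1.66, and PNO1, which holds the immature small subunit for cleavage, -1.62. Of 14 genes of the RNA polymerase I machinery 8 fell and 1 rose at 48 h (median -0.52), and 6 fell at 4 h, with CD3EAP (POLR1G) at -1.38 and -1.33. Those falls stand beside the same 16.4% and 3.49% of all genes. Mitochondrial ribosomal proteins, which belong to a separate ribosome, had 30 of 74 lower and 4 higher at 48 h (median -0.39), and 24 higher and 5 lower under DMSO against naive, beside 17.6% of all genes higher and 16.4% lower at 48 h and 11.4% and 14.6% under DMSO. Of 10 snoRNA host transcripts tested, many of them TOP RNAs themselves, 3 rose and 2 fell under DMSO (11.4% and 14.6% of all genes did), where GAS5 was -1.03, SNHG5 -0.84 and SNHG12 1.22.

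**Figure D5:**
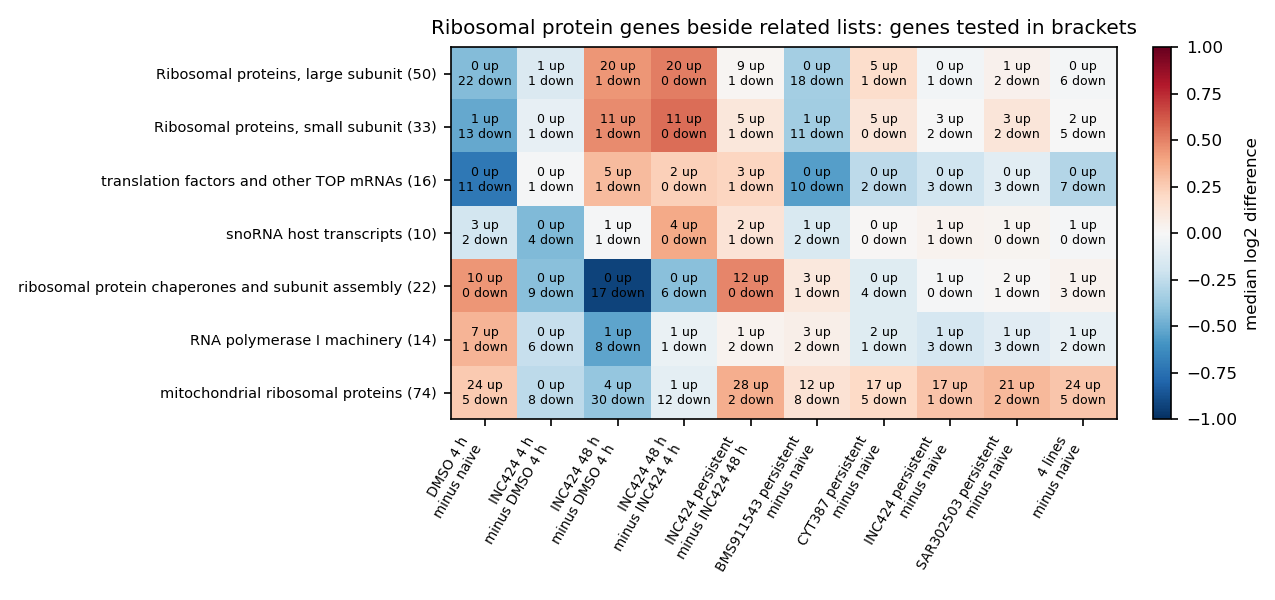
Median log2 difference (colour, -1 to 1) of ribosomal protein genes of each subunit and 5 related lists (rows, number tested in brackets) in 10 comparisons (columns), with the numbers that rose and fell in each cell. At 48 h against DMSO the ribosomal protein rows are red (20 and 11 up) and the assembly row is dark blue (17 down).

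Of 15 tested genes of MYC and mTOR control, 1 rose and 4 fell under DMSO (11.4% and 14.6% of all genes did) and 6 rose and 5 fell at 48 h (17.6% and 16.4%). MYC mRNA averaged 23390 in naive, 15786 under DMSO, 13852 at 4 h and 24898 at 48 h. It was -0.57 under DMSO against naive (limma adjusted p = 0.0336) and 0.66 at 48 h against DMSO (limma adjusted p = 0.0111). In the BMS911543 line the MYC difference was -0.19 ± 0.19 (limma adjusted p = 0.536). DDIT4, an inhibitor of mTOR complex 1, was -3.22 under DMSO, 1.73 and 1.21 higher at 4 h and 48 h than DMSO, and -1.50 in the BMS911543 line. DEPTOR, another mTOR inhibitor, was lower than naive in every line. It was -2.48 in the BMS911543, -1.25 in the CYT387, -3.14 in the INC424 and -2.61 in the SAR302503 line. At 48 h against DMSO DEPTOR was 0.75. The ribosomal protein pseudogenes, of which 186 of 269 rows were tested, had 11 lower and 9 higher under DMSO (median -0.01), and 8 higher and 3 lower at 48 h (0.21), below the shares of all genes.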

How the data were processed

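The 24 SET2 libraries were made from poly(A) RNA cut by RNase III and read on an Ion Proton, per the labels' protocols. The authors deposited 1 table of 25082 genes whose values are a normalised signal (normalised read counts). Per the submitters' processing notes, hg19 and GRCh37 are the builds, and the tools are DESeq 1.10.1, BWA 0.7.5.1 and HTSeq 0.5.3p3. Their roles are not given. The deposited signal values divide by a library's own step into whole reads, to within 0.01. In 3 libraries the step is within 0.01 of 1.

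Values were log2-transformed after adding 1. The 20154 genes with at least 10 in at least 3 libraries were fitted with limma 3.58.1 (R 4.3.3, trend, 16 residual degrees of freedom, two-sided tests). Alternatives used edgeR 4.0.16 and DESeq2 1.42.0 on the recovered reads. Paralog ratios were tested with exact permutation (two-sided, scipy 1.17.1). The scripts were tested on simulated data. Alternatives tried were a replicate block, separate fits per comparison, other scalings, filters and pseudocounts, and leaving out libraries. The members, lists and rules were chosen with earlier results of these data known. Named members are, per comparison, up to 4 rises and 4 falls past the threshold without overlap, members with a listed role, members called in at least 3 lines and members against the list's direction, and up to 4 genes of each list. Gene coordinates come from RefSeq GRCh38.p14 and not from the authors' build. Some members are counted in the totals and not reported by name here.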

Additional observations from a re-analysis of the deposited data

Results flagged for a closer look

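Differences between lines or times were tested directly. Among the 4 persistent lines 41 of 83 members differed by the limma F test, and between 48 h and 4 h of INC424 31 members differed. Of all genes 47.1% and 14.7% did, so the count among the lines sat near the background. Members with small adjusted p-values among the lines (limma F test) were RPL5 (3.71e-05), RPS29 (3.88e-05), RPL9 (8.85e-05), RPL13A (1.10e-04), RPS14 (1.44e-04) and RPS20 (1.46e-04). All 6 had their lowest group mean among the 4 lines in the BMS911543 line.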

How the results depend on the processing

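Of 187 called values of single members, 0 changed direction under any of 13 settings. These values were picked for passing the threshold in the main fit of the same libraries. A change of direction was therefore unlikely from the start, and nothing is concluded from its absence. Calls lost were 33 under scaling by reads outside the members, 29 under upper-quartile and 17 under TMM scaling, 23 in fits of the compared groups alone, 21 by edgeR, 12 without a filter and 0 by DESeq2. Scaling by reads outside the members moved the median of all genes to 0.18 under DMSO and 0.12 in the BMS911543 line, with the members at -0.29 and -0.24 and 25 and 26 calls.

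In fits of the compared groups alone the calls were 1 (CYT387 line), 11 (INC424 line), 6 (mean of the lines), 14 (4 h), 64 (48 h against DMSO), 63 (48 h against 4 h), 42 (INC424 line against 48 h) and 24 (among lines), where 60% of all genes were called at 48 h against DMSO. The CYT387 line gave 7 under upper-quartile scaling. The SAR302503 line gave 5 without a filter and 13 by DESeq2. For 48 h against 4 h edgeR gave 18. Without CYT387 library 2 in any fit there were 11 (INC424 line), 17 (SAR302503 line), 6 (4 h) and 29 (INC424 line against 48 h). Without the 4 libraries richest in squamous markers, a setting chosen after seeing the data, there were 18, 15, 17, 25, 6 and 66 for the CYT387, INC424 and SAR302503 lines, their mean, 4 h and among lines. Except where stated, the share of all genes called in these fits is not given here, so the counts cannot be read as particular to the members. The cause of these shifts was not tested.

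Leaving out each library gave 24 to 28 calls (BMS911543 line), 2 to 18 (CYT387), 3 to 5 (INC424), 3 to 8 (SAR302503), 5 to 17 (mean), 0 to 2 (4 h), 20 to 25 (48 h against DMSO), 8 to 32 (48 h against 4 h), 10 to 13 (INC424 line against 48 h), 22 to 36 (DMSO) and 30 to 55 (among lines). Replicate numbers did not pair the libraries (mean correlation of deviations -0.0126 within and 0.00785 between numbers, 5 of 24 libraries closest to their own number). With a replicate block the calls were 31 (BMS911543 line), 33 (48 h) and 37 (DMSO). The group mean shares of reads in members changed by less than the spread between libraries with all matching symbols, which add only 3 rows of low counts. The same held without CYT387 library 2, but that spread included library 2 (3.70% against 4.55% and 4.58%). Neither check could readily fail, so nothing is concluded from them. Where a library was left out, the spread was still pooled over all groups. Precision is limited by 3 libraries a group, and RPL26L1, RPL39L and RPL22L1 by counts down to 23 reads.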
